A study of Mus musculus with 60 samples.

Results

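The clustered replication-dependent histone genes of the mouse were followed on dual-colour microarrays in lung, liver and forestomach. Members were the genes on the array whose RefSeq symbol begins with H1f1 to H1f6, H2ac, H2bc, H3c or H4c, or with the older Hist prefix. A gene with several probes was represented by the one with the highest mean log2 signal of tissue RNA before normalisation. A probe with a missing value on any array ranked last. These rules found 44 genes on 48 probes out of 55681 probes in the series, while another 20 such symbols of the RefSeq table were not matched to a probe. Genes were taken by symbol, and measured signals entered these rules only in the choice among probes of a gene. The gene family itself was chosen with earlier results of these data known.

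RNA came from 20 male Muta Mouse animals, a transgenic strain that carries a bacterial reporter gene for mutation tests, aged about 10 weeks. Olive oil was given by daily gavage for 28 days, either alone (D0, the vehicle group) or with benzo(ghi)perylene (BghiP), a polycyclic aromatic hydrocarbon, at 6.25 (D1), 12.5 (D2) or 25 mg/kg-bw/day (D3). Each dose group held 5 mice, and lung, liver and forestomach of every mouse were taken 72 h after the last gavage, which gave 60 arrays in 12 groups. The study asked which transcripts BghiP altered in each tissue, and the 3 tissues of the vehicle mice can be compared with each other. Replicates were separate animals, and the values below are from whole pieces of tissue. In such samples fewer cells of a type and less RNA per cell cannot be told apart.

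Histones are the proteins that package DNA: pairs of H2A, H2B, H3 and H4 form the nucleosome core, and H1 binds the linker DNA between cores. Most copies are made from clusters of small intronless genes that are switched on when DNA is replicated, so that new chromatin can be assembled behind the fork. Their messenger RNAs typically end in a stem-loop, bound by the protein SLBP, in place of the poly(A) tail of other messages, although some members also give rise to polyadenylated forms in cells that have stopped dividing. The labelling kit primes complementary RNA from poly(A) tails, so that the signals below are those of the copies that were primed, and the share of each transcript that was primed was not tested. Tissue RNA was labelled with Cy5 and a pool of RNA from 11 mouse cell lines, the Universal Mouse Reference RNA, with Cy3. Values are log2 of the tissue signal over the reference signal: 0 is an equal signal, and a difference of 1 is a 2-fold difference.

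Promoters of 39 of the 44 genes were found in the RefSeq table of assembly GRCm38.p6, 32 of them on chromosome 13 and 7 on chromosome 3. The 250 bases upstream of the start are shown for 4 genes that behave differently in the results below: H2ac22 and H1f5, which were higher in forestomach than in liver, and H2bc14 and H2ac18, which were higher in liver than in lung. Capitals mark the letters CCAAT (or ATTGG on the other strand), the octamer ATTTGCAT and TATAAA, each sought on both strands, and matches of different motifs could overlap. H2ac22 lies at chr13:21787249-21787498 on the minus strand, H1f5 at chr13:21780626-21780875 on the minus strand, H2bc14 at chr13:21721794-21722043 on the plus strand and H2ac18 at chr3:96245247-96245496 on the plus strand.
H2ac22: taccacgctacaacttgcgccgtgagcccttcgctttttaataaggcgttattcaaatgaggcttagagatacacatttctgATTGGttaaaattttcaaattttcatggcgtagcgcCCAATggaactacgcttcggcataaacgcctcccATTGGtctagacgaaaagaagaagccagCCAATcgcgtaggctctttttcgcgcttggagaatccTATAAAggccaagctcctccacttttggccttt
H1f5: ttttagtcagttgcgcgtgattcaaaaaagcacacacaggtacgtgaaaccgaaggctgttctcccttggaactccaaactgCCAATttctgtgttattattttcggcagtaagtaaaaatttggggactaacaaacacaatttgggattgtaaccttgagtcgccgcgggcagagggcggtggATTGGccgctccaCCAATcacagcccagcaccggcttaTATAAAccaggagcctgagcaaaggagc
H2bc14: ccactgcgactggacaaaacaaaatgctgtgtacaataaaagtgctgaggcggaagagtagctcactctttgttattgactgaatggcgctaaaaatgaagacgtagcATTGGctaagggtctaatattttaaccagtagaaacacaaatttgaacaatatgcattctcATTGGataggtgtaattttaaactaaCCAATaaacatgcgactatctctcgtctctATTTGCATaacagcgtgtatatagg
H2ac18: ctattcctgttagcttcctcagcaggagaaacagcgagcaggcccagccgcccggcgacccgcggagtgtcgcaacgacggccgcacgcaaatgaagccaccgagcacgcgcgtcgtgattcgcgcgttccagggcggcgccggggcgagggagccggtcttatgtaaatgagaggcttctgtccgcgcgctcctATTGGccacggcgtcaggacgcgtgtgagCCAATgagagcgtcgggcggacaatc

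The CCAAT letters were present in 33 of the 39 windows (84.6%), against 34.5% of the windows of all 27025 genes in the table. All 6 H1 promoters, all 13 of H2A and all 8 of H2B held them, as did 4 of 6 for H3 and 2 of 6 for H4. In H2ac22 they began 168, 132, 98 and 70 bases before the start, and in H1f5 168, 66 and 53 bases before it. The octamer was found in 11 windows (28.2%, against 1.61% of all genes), namely in 6 of H2A and 5 of H2B, and in no window of H1, H3 or H4. Its match in H2bc14 began 25 bases before the start. The TATAAA letters were present in 20 windows (51.3%, against 13% of all genes), including those of H2ac22 and H1f5. These are matches of letters, and factor binding was not measured.

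The arrays lay on 8 slides. Slides 1 to 5 held lung and forestomach, with 1 array of every dose in each tissue, and slides 6 to 8 held liver, so that slide and liver cannot be told apart. Each dose had its own column on every slide, and column and dose cannot be told apart either. On slides 1 to 5 lung lay in row 1 and forestomach in row 2, so that row and tissue cannot be separated there. Tissue labels matched the tissue markers in vehicle mice. The mean ratio of lung markers was 5.78 to 6.64 in lung, that of liver markers 7.43 to 8.42 in liver and that of squamous epithelium markers 5.29 to 6.11 in forestomach. There were 3 vehicle arrays that stood apart. In the lung of D0 mouse 1 the mean of skeletal muscle markers was 5.12 and that of squamous epithelium markers 4.71, whereas the other 4 vehicle lungs reached at most -0.36 and -0.07. In the forestomach of D0 mouse 5 the mean of fat cell markers was 6.28, against 1.16 to 2.69 in the others. In the forestomach of D0 mouse 2 the mean of 4 lung markers was 5.09, against 0.94 to 1.66 in the others, with the surfactant genes Sftpc at 7.57 (8.13 to 8.74 in vehicle lung) and Sftpb at 5.85 (5.95 to 7.33). Without mouse 2, limma called 27 members for vehicle forestomach against liver, 20 for lung against forestomach and 23 for lung against liver. Without mice 1 and 5, limma called 31 members between vehicle forestomach and liver (30 with them), and the counts for lung against liver (23) and lung against forestomach (21) did not move.

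Of the 44 genes, 22 were well above background in Cy5 on all 60 arrays. A gene was tested in a tissue where this held on at least 5 of its 20 arrays, which was so for 35 members in lung, 34 in liver and 34 in forestomach, and for 32 in every tissue. The 6 that passed in no tissue were H1f3, H2ac1, H2ac8, H2ac21, H2bc22 and H2bc23. The reference channel was steady, with a median SD over arrays of 0.15 for the members and 0.14 for all detected probes. Many coding sequences of the family are nearly identical, so that a probe may also bind transcripts of other members, and each value is that of the probe assigned to the gene.

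Relative to the cell line pool, most members were low in the vehicle tissues. The median log2 ratio of the members tested was -1.30 in lung, -1.89 in liver and -0.61 in forestomach, while that of all probes was 0.07, 0.11 and 0.04. More than 2-fold below the reference were 19 of 35 members in lung (54.3%, against 10.4% of all probes), 22 of 34 in liver (64.7%, against 17.4%) and 8 of 34 in forestomach (23.5%, against 8.22%). The minority above the reference counted 8 members in lung, 9 in liver and 7 in forestomach. It included H1f6, H2ac18, H2bc4, H2bc6, H3c15 and H4c9 in every tissue, besides H1f2 in lung and forestomach, H4c8 in lung and liver, and H2bc1 and H2bc14 in liver. The other probe of H4c9 lay below the reference in vehicle lung (-1.15), liver (-1.15) and forestomach (-0.37), so that the place of H4c9 depends on the probe.

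The comparison of the vehicle tissues asked where these genes were higher. Forestomach had the higher values for most members and liver the lower ones, and the H2A genes other than H2ac18 moved together, whereas a smaller set led by H2bc4, H2bc14 and H2ac18 was higher in liver. Of the 36 members tested between forestomach and liver, limma called 24 higher in forestomach, against 24.2% of all probes, and 6 higher in liver, against 21.1%. A call required a Benjamini-Hochberg adjusted p of 0.05 or less over all probes tested and a difference of at least 1.5-fold. The median difference was 1.10 over the members and -0.01 over all probes. Between lung and forestomach, 19 of 36 members were lower in lung (15% of all probes) and 2 were higher (19.5%), with a median of -0.78 against 0.03. Between lung and liver, 18 of 37 members were higher in lung (25.9%) and 5 lower (19.4%), with a median of 0.44 against 0.07. A gene could be tested here when it passed the signal filter in only 1 of the tissues, and H3c7 and H3c8 passed in forestomach and not in liver. Among members that passed in both, 22 of 32 were higher in forestomach than in liver and 6 lower, 18 of 33 were lower in lung than in forestomach and 2 higher, and 18 of 32 were higher in lung than in liver and 5 lower. Of all probes that passed in both, 45.9%, 38.2% and 48.4% were called in either direction in these 3 comparisons. Among the 32 members measured in every tissue, 18 had the order forestomach, lung, liver, and for 11 of these all 3 pairs were called. Of the 22013 probes that passed in every tissue, 16.5% had this order and 2.48% had it with all 3 pairs called. In the other orders no member had all 3 pairs called. Over all orders, 11 of the 32 members (34.4%) and 13% of the 22013 probes had all 3 pairs called.

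**Figure D1:**
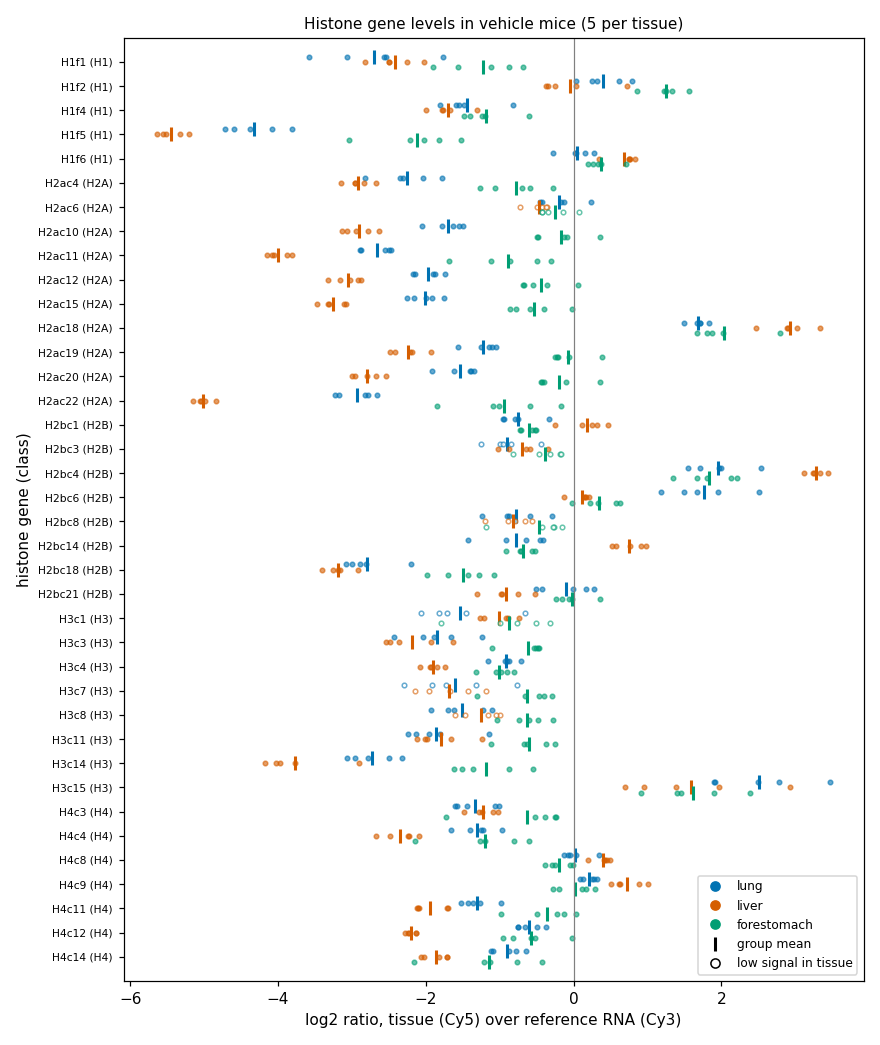
Log2 ratio of tissue RNA (Cy5) to reference RNA (Cy3) of each histone gene tested, in the 5 vehicle mice (points) of lung, liver and forestomach, with group means as bars. Open points mark genes not well above background on enough arrays of that tissue, and most H2A genes are highest in forestomach and lowest in liver.

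Among the H1 genes, which encode the linker histones, 3 of the 5 tested were higher in forestomach than in liver (24.2% of all probes), namely H1f1, H1f2 and H1f5, which were also lower in lung than in forestomach (15% of all probes). Counts over 5 genes are too small to set a class apart. H1f5 showed the largest H1 differences. In vehicle forestomach its log2 ratios were -1.83, -2.22, -3.04, -1.52 and -2.03 in mice 1 to 5, in lung -3.81, -4.60, -4.08, -4.38 and -4.72, and in liver -5.63, -5.21, -5.33, -5.55 and -5.51. The 3 tissues did not overlap. H1f5 was 3.32 ± 0.28 (SE) higher in forestomach than in liver (limma, adjusted p = 2.58e-15), 1.13 ± 0.28 higher in lung than in liver (adjusted p = 0.000404) and 2.19 ± 0.28 higher in forestomach than in lung (adjusted p = 2.83e-09). H1f2 lay above the reference in every vehicle forestomach, at 1.56, 1.23, 0.86, 1.25 and 1.33, and was 1.29 ± 0.20 above liver (adjusted p = 9.77e-08). The testis-linked H1f6 was the only H1 gene called higher in liver than in lung, with a lung minus liver difference of -0.65 ± 0.15 (adjusted p = 0.000139). H1f4 gave 0.52 ± 0.19 between forestomach and liver, under the 1.5-fold limit, and was called there at 0.67 without mouse 5, at 0.71 without mice 1 and 5, at 0.76 in the deposited ratios and at 0.62 after quantile normalisation of the Cy5 signals.

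The H2A genes encode the core histone whose docking domain contacts H3 and H4. Of 9 tested between forestomach and liver, 8 were called higher in forestomach (24.2% of all probes), and the median difference of the class was 2.62. H2ac22 had the largest difference of all members. Its ratios in vehicle forestomach were -1.10, -0.17, -1.86, -0.59 and -1.01 in mice 1 to 5, in lung -2.66, -3.18, -2.83, -2.79 and -3.22, and in liver -5.05, -4.84, -5.06, -4.99 and -5.15. The 3 ranges were separate, with the smallest spread in liver (SD 0.11, n = 5) and the largest in forestomach (SD 0.63, n = 5). H2ac22 was 4.07 ± 0.22 higher in forestomach than in liver (limma, adjusted p = 4.24e-23), 2.08 ± 0.22 higher in lung than in liver (adjusted p = 3.60e-12) and 1.99 ± 0.22 higher in forestomach than in lung (adjusted p = 3.95e-11). H2ac11 was 1.34 ± 0.22 higher in lung than in liver and 1.76 ± 0.22 higher in forestomach than in lung. Between forestomach and liver H2ac10 differed by 2.74 ± 0.15, and H2ac12, H2ac15, H2ac20, H2ac19 and H2ac4 lay between 2.14 and 2.72. A second probe of H2ac15 gave 3.74 where the brighter one gave 2.72.

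H2ac18, an H2A gene of the chromosome 3 cluster whose promoter is shown above, ran the other way. Its ratios were 3.02, 3.34, 2.88, 2.90 and 2.47 in vehicle liver, 1.67, 1.71, 1.72, 1.49 and 1.84 in lung and 2.02, 2.79, 1.81, 1.67 and 1.87 in forestomach. All liver values lay above all lung values, whereas forestomach mouse 2 reached into the liver range. The lung minus liver difference was -1.24 ± 0.28 (adjusted p = 9.72e-05) and the forestomach minus liver difference -0.89 ± 0.28 (adjusted p = 0.00406, and -0.58 with adjusted p = 0.0521 in the deposited ratios). Between lung and liver the calls of H2ac10, H2ac20, H2ac19 and H2ac4 depended on the signals used. With the scanner program's processed signals, which are background subtracted and detrended, the lung minus liver difference of H2ac10 was 0.40 in place of 1.21, that of H2ac20 0.44 in place of 1.26 and that of H2ac19 0.15 in place of 1.02, and none of these was called. The call of H2ac4 (0.66) was lost in that setting too (0.48), and also without mouse 3 (0.48, adjusted p = 0.0549).

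The H2B genes, which encode the partner of H2A in the core, included calls in both directions. Between lung and liver 2 of 8 were higher in lung (25.9% of all probes) and 3 lower (19.4%), and between forestomach and liver 2 of 7 were higher in forestomach (24.2%) and 3 lower (21.1%), counts too small to set the class apart from all probes. H2bc4 gave ratios of 3.33, 3.44, 3.12, 3.23 and 3.25 in vehicle liver, 1.55, 2.53, 2.00, 1.97 and 1.71 in lung and 1.67, 2.12, 2.20, 1.80 and 1.34 in forestomach. Every liver value lay above every value of the other tissues, which overlapped each other. The lung minus liver difference was -1.32 ± 0.23 (limma, adjusted p = 1.57e-06), and lung and forestomach differed by 0.13 ± 0.23 (adjusted p = 0.668). H2bc14 was also highest in liver, with 0.98, 0.76, 0.57, 0.91 and 0.51 in liver, -0.92, -0.41, -1.44, -0.65 and -0.46 in lung and -0.91, -0.71, -0.73, -0.57 and -0.52 in forestomach. Again liver did not overlap with the other tissues, and the lung minus liver difference of H2bc14 was -1.52 ± 0.20 (adjusted p = 2.02e-09). H2bc1, a testis-linked H2B gene, was the third one higher in liver than in lung (-0.93 ± 0.18, adjusted p = 1.54e-05). Its forestomach minus liver difference was -0.78, and -0.47 in the deposited ratios, where it was not called.

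H2bc6 was instead high in lung. Its ratios were 1.18, 2.50, 1.49, 1.67 and 1.95 in vehicle lung, 0.17, 0.21, 0.13, 0.16 and -0.13 in liver and 0.33, 0.23, -0.03, 0.57 and 0.63 in forestomach. Lung did not overlap with either tissue, and it was 1.65 ± 0.19 above liver (adjusted p = 4.61e-11) and 1.41 ± 0.19 above forestomach (adjusted p = 7.76e-09). H2bc21 was called higher than in liver in both lung (0.81) and forestomach (0.89), and H2bc18 in forestomach (1.69 ± 0.20, adjusted p = 9.17e-11).

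Of the H3 genes, which encode the core histone with the longest modified tail, 6 of 8 were called higher in forestomach than in liver (24.2% of all probes) and none was lower. Of the 5 that passed the signal filter in both tissues 4 were called, and the other calls, H3c7 and H3c8, were of genes that passed in forestomach only. H3c14 had the largest difference, 2.59 ± 0.20 (limma, adjusted p = 2.30e-16), and fell between the 2 tissues in lung, where it was 1.05 ± 0.20 above liver (adjusted p = 1.22e-05). After quantile normalisation of the Cy5 signals the lung minus liver difference of H3c14 was 0.52, under the 1.5-fold limit. H3c4 gave -0.87, -0.90, -1.16, -0.93 and -0.72 in vehicle lung and -1.74, -1.93, -2.08, -1.85 and -1.94 in liver. Lung and liver did not overlap, and the difference of 0.99 ± 0.09 had the lowest adjusted p of any member between these tissues (9.77e-14). H3c15 lay above the reference in all 15 vehicle arrays but varied within each group, from 1.90 to 3.47 in lung, from 0.69 to 2.92 in liver and from 0.91 to 2.38 in forestomach. Its differences of lung from liver (0.92 ± 0.35, adjusted p = 0.0187) and from forestomach (0.90 ± 0.35, adjusted p = 0.0269) were called, yet the groups overlapped. Those calls were not kept with processed signals (0.65, adjusted p = 0.129, and 0.27, adjusted p = 0.575). The call against liver was also lost without mouse 4 (0.88) or mouse 5 (0.63), and that against forestomach without mouse 2 (0.74), mouse 3 (0.88) or mouse 4 (0.87). Without mice 1 and 5 the difference from liver was 0.53, and the difference from forestomach was 0.48 as an average over the 4 dose groups and 0.69 after quantile normalisation of the Cy5 signals, none of which was called. H3c7 was well above background on 2 of 5 vehicle forestomach arrays and on none in liver, and was at least 1.53-fold higher in forestomach (adjusted p = 0.00045). It passed the signal filter in forestomach, where it was higher, and not in liver, so that the p describes a gene chosen by that filter, and the call was lost after quantile normalisation of the Cy5 signals. H3c1 was well above background on 2 of 5 vehicle liver arrays and on none in lung, with at least a 1.40-fold difference (adjusted p = 0.0604). As it passed the signal filter in liver and not in lung, no size beyond this bound is given, and whether it was called depended on mouse 3 and on the signals used. The bounds of H2ac6 (1.20) and H2bc8 (1.03) for lung over liver and of H2ac6 (1.03) for lung over forestomach were smaller. H2ac6 and H2bc8 were well above background on no liver array and passed the signal filter through lung, so that no size beyond these bounds is given, and both were called for lung against liver with processed signals. H2bc22, which was not tested, was well above background on 1 vehicle forestomach array and on none in lung or liver, with bounds of 1.22 over lung and 1.15 over liver.

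The H4 genes encode the partner of H3. Between forestomach and liver 5 of 7 were called higher in forestomach (24.2% of all probes), namely H4c3, H4c4, H4c11, H4c12 and H4c14. The 2 called lower (21.1% of all probes) were H4c8 and H4c9. In H4c12 the ratios were -0.75, -0.50, -0.38, -0.75 and -0.66 in vehicle lung, -2.14, -2.28, -2.22, -2.13 and -2.24 in liver and -0.57, -0.02, -0.96, -0.52 and -0.82 in forestomach. Liver lay apart from both other tissues, which overlapped. H4c12 was 1.62 ± 0.16 above liver in forestomach (limma, adjusted p = 1.48e-12) and 1.60 ± 0.16 in lung (adjusted p = 2.37e-12), and lung and forestomach differed by -0.03 ± 0.16 (adjusted p = 0.9). A second probe of H4c12 gave 1.31 and 0.75 for the same differences from liver. H4c14 was 0.73 ± 0.18 higher in forestomach than in liver (adjusted p = 0.000577), but was not called without mouse 2 (0.50, adjusted p = 0.0229) or as the mean of all its probes (0.48). H4c9 was 0.71 ± 0.12 lower in forestomach than in liver, whereas its other probe was 0.79 higher. The probe was chosen on signals before normalisation, and after normalisation the other had the higher mean log2 Cy5 signal (8.11 against 7.97). The direction of H4c9 between the tissues is therefore not settled by these probes.

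**Figure D2:**
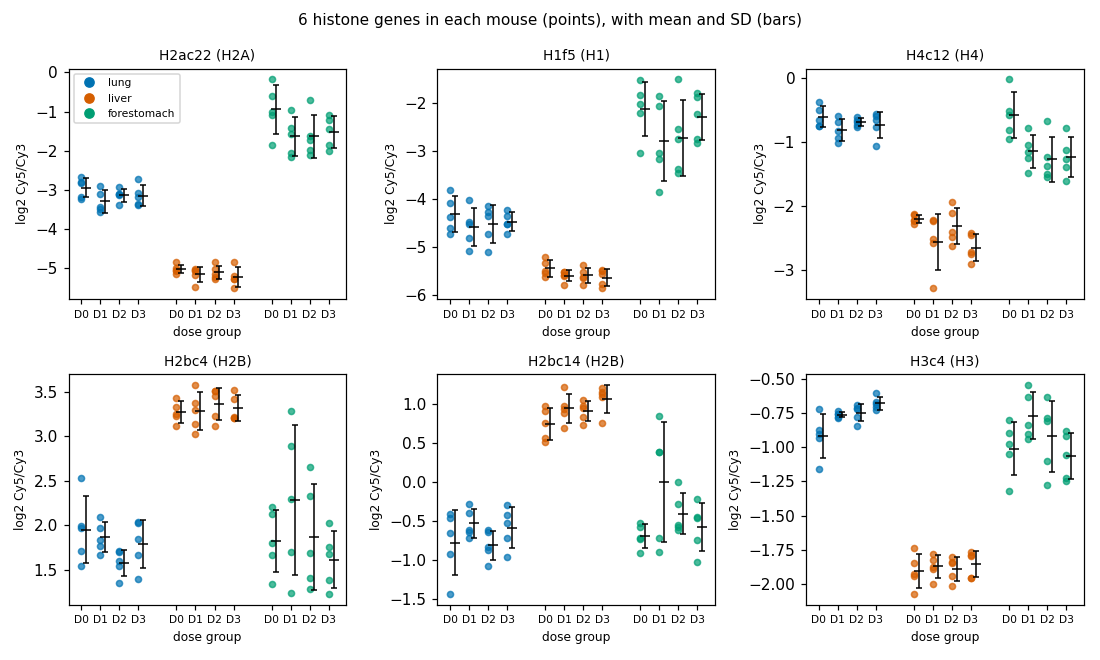
Log2 ratio of tissue to reference RNA of H2ac22, H1f5, H4c12, H2bc4, H2bc14 and H3c4 in each mouse (points) of the 4 dose groups and 3 tissues, with group mean and SD (bars, n = 5). In the vehicle mice (D0) liver does not overlap with lung or forestomach in any of these 6 genes.

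The lung and forestomach of a vehicle mouse were on the same slide, so that this comparison could also be made within slides. Lung was always in row 1 of the slide and forestomach in row 2, so that row and tissue cannot be told apart. On each of the 5 slides the median member was lower in lung than in forestomach, by differences of -0.88, -0.41, -1.05, -0.85 and -0.47. H2ac22 was lower in lung on all 5 slides, from -0.97 to -3.01, and H1f5 from -1.05 to -2.86. With slide as a random block the counts of members called were 23, 21 and 30, as without it. For lung against liver, 78.3% of the calls were higher in lung in the main setting, 60% with processed signals (15 higher, 10 lower) and 68.2% when Cy5 signals were quantile normalised between arrays (15 higher, 7 lower).

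Genes linked to DNA replication and mitosis were measured beside the histone genes. Of 27 tested, such as Mki67 (a marker of dividing cells), Rrm2 (a subunit of ribonucleotide reductase) and Top2a (a topoisomerase), 21 were higher in vehicle forestomach than in liver (24.2% of all probes) and none lower (21.1%), with a median difference of 1.46. Mki67 was 3.06 ± 0.26 and Rrm2 2.67 ± 0.24 higher in forestomach than in liver. Between lung and forestomach 19 of the 27 were lower in lung (15% of all probes) and 1 was higher (19.5%), with a median of -1.09. Between lung and liver 11 were higher in lung (25.9%) and 2 lower (19.4%), with a median of 0.57. Their part in the differences of the histone genes was not tested.

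Among 18 genes for histone expression and chaperone factors, 8 were higher in forestomach than in liver (24.2% of all probes) and none lower (21.1%), with a median of 0.50. Asf1b and Chaf1b, which hand H3 and H4 to replicating DNA, were 1.76 ± 0.17 and 1.72 ± 0.15 higher, and were not among the genes set to be named in advance. Slbp, whose product binds the histone stem-loop, was 0.66 ± 0.18 higher in forestomach than in liver (limma, adjusted p = 0.00139) and 0.82 ± 0.18 higher than in lung (adjusted p = 0.000162), and Casp8ap2, a factor of histone gene expression, was 0.62 ± 0.11 above liver. Replication-independent variants, which are mostly polyadenylated and made throughout the cell cycle, were higher in forestomach than in liver for 6 of 11 and lower for none (24.2% and 21.1% of all probes), with a median of 0.88. H3f3b was 1.45 ± 0.11 above liver in lung and 0.88 ± 0.11 in forestomach, and H2az1 1.63 ± 0.13 and 1.33 ± 0.13. In H2ax, lung was lower than liver (-0.62 ± 0.20) and forestomach did not pass (0.27 ± 0.20).

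The comparison with dose asked whether BghiP altered these genes. No member was called at any dose in any tissue. The 3 doses of a tissue were compared with the same 5 vehicle arrays, so that their changes are not independent of each other. In lung limma called 0 of 35 members at D1 and D2 (0% of all probes at either dose) and at D3 (0.0677%), and 0 for the slope on dose (0.306%). At an unadjusted p under 0.05 there were 15 members at D1 (9.37% of all probes), 14 at D2 (12.3%) and 13 at D3 (15.6%). The median change of the members was -0.12, -0.18 and -0.16, against changes between 0.00 and 0.01 for all probes. These lung counts depended on the setting. Without the slide term 5, 3 and 1 of the 35 members had an unadjusted p under 0.05 at D1, D2 and D3, and with processed signals 4, 5 and 3. Here and below, the shares of all probes at this limit belong to the main setting only. Unadjusted counts under other settings therefore have no background beside them. H3c4 had the smallest p at D3. Its ratios were -0.67, -0.70, -0.68, -0.73 and -0.60 in mice 16 to 20, which overlapped with the vehicle values given above by a single mouse, and the D3 value was the higher on all 5 slides (by 0.11 to 0.48). The change was 0.24 ± 0.06 (adjusted p = 0.0774).

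In liver limma called 0 of 34 members at D1 and D2 (0% of all probes at either dose), at D3 (0.0927%) and for the slope (2.61%). Unadjusted, 3 members passed at D1 (4.24%), 1 at D2 (6.83%) and 10 at D3 (17.9%), with median changes of -0.02, -0.10 and -0.14. All 9 H2A genes and all 7 H4 genes tested had D3 changes below 0 in liver, whereas 4 of 7 H2B genes were above it. The median D3 change of all probes was -0.0005. Genes of a class are not separate observations, as their pairs correlated across mice in liver at medians of 0.71 (H2A) and 0.66 (H4). H2ac4 had the smallest p in liver, with -2.97, -2.67, -3.15, -2.96 and -2.84 in D0 and -2.89, -3.20, -3.41, -3.11 and -3.33 in D3. The groups overlapped, D3 was lower on all 3 slides, and the change was -0.33 ± 0.10 (adjusted p = 0.107). Its slope on dose had the lowest adjusted p of a member in this tissue (-0.33 per 25 mg/kg-bw/day, adjusted p = 0.0669) and passed without mouse 1 (adjusted p = 0.0384). H4c12 gave -2.42, -2.75, -2.73, -2.46 and -2.91 in D3, all below the 5 vehicle livers, and changed by -0.48 ± 0.16 (adjusted p = 0.145). Without mouse 2 the medians of the members were 0.03, -0.03 and -0.07, and without the slide term 1, 0 and 6 members passed unadjusted.

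In forestomach limma called 0 of 34 members at D1, D2 and D3 and for the slope, as it did among all probes (0% each). Unadjusted, there were 14 members at D1 (18.1% of all probes), 16 at D2 (9.44%) and 9 at D3 (6.42%). The median changes were -0.28, -0.44 and -0.29, against -0.02, 0.03 and 0.01 for all probes. With no filter on low signals, which adds 10 members near background, the medians over all 44 were -0.11, -0.22 and -0.17, and over the 22 members above background on all 20 arrays -0.36, -0.46 and -0.38. At D3 all 9 H2A genes lay below D0, with a class median of -0.55. These genes are not separate observations, as their pairs correlated across mice at a median of 0.87 in forestomach. H2ac10 had the smallest p there, with -0.48, 0.36, -0.09, -0.13 and -0.49 in D0 and -1.13, -1.07, -0.74, -0.47 and -0.70 in D3. The groups overlapped only slightly, D3 was lower on all 5 slides, and the change of -0.66 ± 0.19 had an adjusted p of 0.774. At D2 H1f1 had the lowest p of the members (-0.73 ± 0.15, adjusted p = 0.501). With processed signals 5, 6 and 4 members had an unadjusted p under 0.05 in forestomach at D1, D2 and D3, and without D0 mouse 5 there were 13, 14 and 10. Without D0 mouse 2, the forestomach with lung markers, there were 9, 9 and 3, and the medians were -0.19, -0.30 and -0.23.

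**Figure D3:**
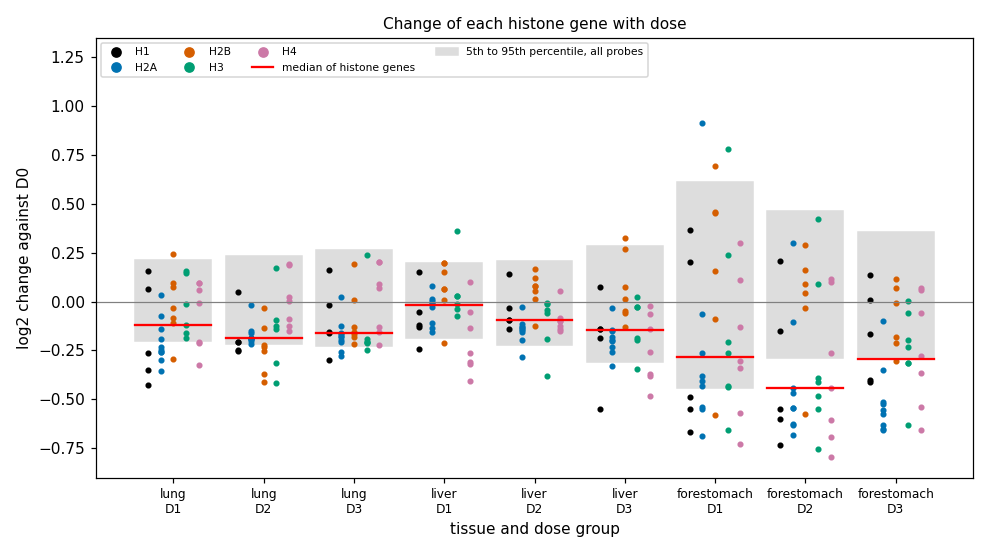
Log2 change of each histone gene tested (points, coloured by class) in D1, D2 and D3 against D0 in lung, liver and forestomach, with the median of the members (red line) and the range from the 5th to the 95th percentile of all probes (grey). The red line lies between -0.02 and -0.44, the 3 doses of a tissue share the D0 arrays, and no gene passed the adjusted threshold.

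The channels were also taken separately. The Cy5 signal of the median member changed by -0.11, -0.16 and -0.14 in lung, -0.04, -0.08 and -0.10 in liver and -0.25, -0.37 and -0.22 in forestomach from D1 to D3, and the Cy3 signal by 0.01 to 0.04. Members with an unadjusted p under 0.05 numbered 11, 16 and 13 in lung, 2, 1 and 7 in liver and 17, 15 and 7 in forestomach in Cy5, and 3, 1 and 7, 0, 5 and 3, and 5, 5 and 6 in Cy3. The share of all probes under this limit was not counted for the single channels, so that these counts have no background beside them. Within slides, the median member was below D0 at D1, D2 and D3 on 4, 5 and 3 of 5 lung slides, on 2, 2 and 3 of 3 liver slides and on 4, 3 and 5 of 5 forestomach slides. Interaction contrasts in limma tested whether the D3 change was unequal in the tissues. They called 0 members between lung and liver (0.00308% of all probes), lung and forestomach (0%) and liver and forestomach (0.00696%), and 2 of 37, 4 of 36 and 3 of 36 members had an unadjusted p under 0.05 (6.38%, 4.75% and 9.64% of all probes). Genes of DNA replication and mitosis had 0 calls at every dose, with medians from -0.09 to 0.04 in lung, from -0.10 to -0.01 in liver and from -0.19 to -0.14 in forestomach. The factors for histone expression and the replication-independent variants also had 0 calls against D0, and 1 such factor was called for the slope in liver.

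In forestomach, markers of the glandular stomach, the neighbouring acid-secreting part, differed widely between mice. The mean ratio of 6 such markers ran from 0.22 to 2.81 on 8 arrays and from 4.17 to 7.87 on 12, and the 12 were 2 mice of D0, 4 of D1, 3 of D2 and 3 of D3. The markers were higher in D1 than in D0 by a median of 3.11, in D2 by 1.69 and in D3 by 0.09, with 0 calls. H2ac18 moved with them. Its ratios were 1.60, 3.50, 2.48, 3.85 and 3.30 in D1, where the glandular means were 1.61, 7.37, 6.26, 7.87 and 7.38. The mouse with the low marker mean also had the lowest H2ac18. The D1 change of H2ac18 was 0.92 and was not called (limma, adjusted p = 0.226). After removal of dose and slide the correlation with the marker mean over 20 mice was 0.69 for H2ac18, 0.64 for H2bc4, 0.44 for H2bc14, 0.49 for H2bc1, 0.37 for H3c15, 0.15 for H2ac10 and -0.43 for H1f5. Over the 12 arrays with high marker means, with doses and slides mixed, the correlation across mice was r = 0.88 for H2ac18, 0.81 for H2bc4, 0.70 for H2bc14 and 0.68 for H2bc1, and over the 8 with low means 0.07, -0.18, -0.06 and -0.12. For H2ac22 these values were -0.13 and -0.18, for H2ac10 0.15 and -0.20, for H1f5 -0.53 and -0.12 and for H3c15 0.46 and 0.60. The arrays of a slide share their hybridisation, and the part of the markers in the histone values was not tested. H2ac18, H2bc4, H2bc14 and H2bc1 were also called higher in vehicle liver than in either other tissue, although the calls of H2ac18 and H2bc1 against forestomach were lost in the deposited ratios (-0.58 and -0.47).

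**Figure D4:**
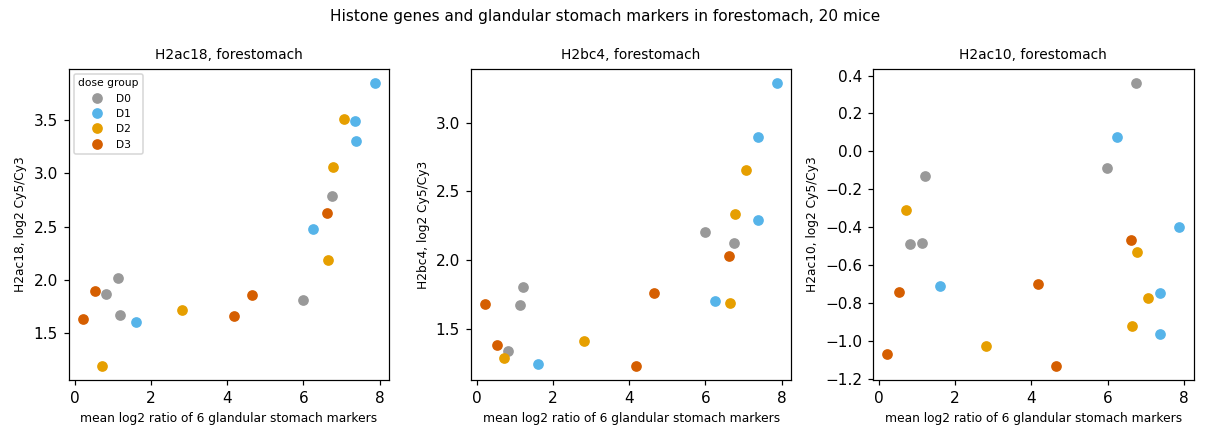
Log2 ratio to the reference of H2ac18, H2bc4 and H2ac10 in forestomach (vertical axes) against the mean log2 ratio of 6 glandular stomach markers (horizontal axes) in each of 20 mice, coloured by dose group. H2ac18 and H2bc4 are higher on the arrays with the highest marker means, whereas H2ac10 shows no such slope.

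Most H2A genes varied together across mice, whereas the other classes were mixed. After removal of additive terms for dose group and slide, the median correlation of a pair of members over the 20 mice was 0.09 in lung (28 members), 0.27 in liver (27) and 0.50 in forestomach (22), while it was 0.00 to 0.01 among every 10th probe. Pairs of the same class had medians of 0.50, 0.65 and 0.87, and pairs of different classes 0.03, 0.22 and 0.39. The 9 H2A genes had a median of 0.81 in lung, 0.71 in liver and 0.87 in forestomach. H2ac18 stood outside this group in lung, with a median of -0.35 to the other H2A genes, and in forestomach (-0.05), but not in liver (0.69). In liver H2ac11 had low values with part of the group, with r from 0.11 to 0.36 to H2ac10, H2ac12, H2ac15, H2ac19 and H2ac20. Of the pairs within a class, 36 in each tissue were of H2A. H1 genes had medians of 0.20 in lung (3 pairs), 0.03 in liver (6) and -0.01 in forestomach (3). H3 genes had 0.11, -0.03 and 0.19, over 3 pairs in each tissue. Pairs of H2B had medians of 0.26, 0.44 and 0.92 (15, 6 and 3 pairs) and those of H4 0.25, 0.66 and 0.82 (21, 21 and 6). The 3 H2B genes in forestomach were H2bc1, H2bc14 and H2bc4, so that 0.92 does not describe the class. Pairs of a class share sequence as well as array, and the part of shared binding to the probes was not tested.

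**Figure D5:**
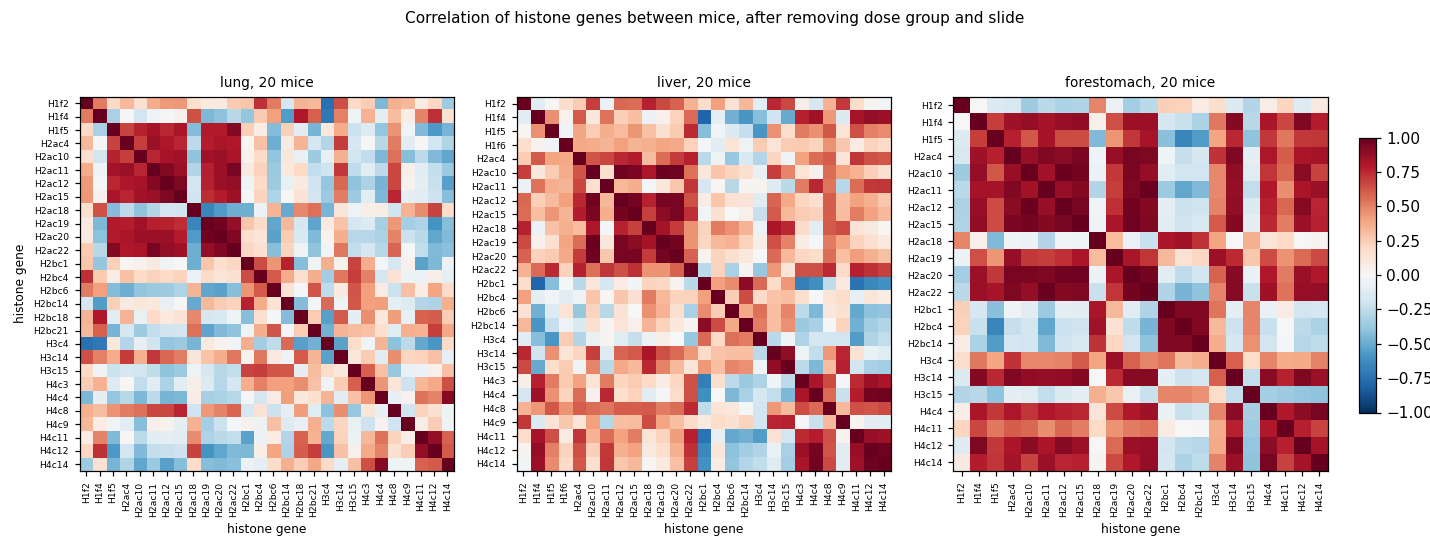
Correlation of each pair of histone genes over the 20 mice of a tissue after removal of dose group and slide, from -1 (blue) to 1 (red), for members well above background on all 20 arrays. H2A genes other than H2ac18 form a red block in lung and forestomach. In liver H2ac18 goes with most of them, whereas H2ac11 has r from 0.11 to 0.36 with H2ac10, H2ac12, H2ac15, H2ac19 and H2ac20.

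Across mice, the mean of the members was set against the means of 10 gene lists in the 3 tissues, 30 relations in all, as a description. For the replication and mitosis genes Pearson's r over 20 mice was 0.59 in lung, 0.71 in liver and 0.51 in forestomach, and Spearman's rho 0.56, 0.59 and 0.48. Without the 2 mice farthest from the median of the replication genes, r was 0.42, 0.32 and 0.59, and after removal of dose and slide 0.50, 0.74 and 0.48. The points share array and reference. Other lists had values of similar size. In lung r was 0.71 for the histone expression and chaperone factors (0.50 after removal of dose and slide), -0.75 for glandular stomach markers (-0.71), -0.58 for neutrophil markers (-0.35) and -0.57 for B cell markers (-0.11). Only 2 of the 6 glandular markers were tested in lung, with means between 0.01 and 0.62. In liver r was -0.54 for fat cell markers (-0.61 after removal of dose and slide), and in forestomach 0.52 for B cell markers (0.42), of which 2 were tested. With T cell markers the members' mean had r = 0.50 in forestomach, 0.51 in liver and -0.09 in lung (0.59, 0.50 and 0.21 after removal of dose and slide). The 4 T cell markers tested in forestomach had median changes from -0.30 to -0.28 against D0, with 0 calls.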

How the data were processed

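RNA of 60 tissue samples was measured against Universal Mouse Reference RNA on 2-colour arrays without dye swaps, 62976 spots each. The deposited scanner files hold Cy5 and Cy3 signal intensity per spot, written by Feature Extraction 10.7.3.1. The deposited log2 ratios are those the authors obtained from median signals, background included, by LOWESS, and the ratios computed here correlated with them at r from 0.992 to 0.999. Here, median signals without background subtraction were normalised within arrays by loess in limma 3.58.1 (R 4.3.3, data.table, version 1.17.8). Control spots (3671) and values with an outlier flag (0.46%) were left out, none was saturated, and replicate spots were averaged. Symbols were taken from the RefSeq table by accession for 26413 of 55681 probes. The headers name build mm9, so the table was used for names and promoter windows only.

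Dose groups and the slope on dose were tested per tissue over 20 arrays with slide as a block. Vehicle tissues were contrasted over 12 groups without a block, and D3 changes between tissues with slide as a block. limma (lmFit, eBayes, two-sided) stood in for the study's own F test, and p-values were adjusted over all probes tested. The tissues came from the same animals, since mouse numbers in the labels recur in each tissue. Deviations from group means correlated between lung and forestomach of a mouse with a median of 0.21. The median was 0.03 between lung and liver and -0.025 between liver and forestomach. Lung and forestomach of a mouse also shared a slide. Named members were those with the largest called vehicle differences, up to 3 bounds above 1 per vehicle comparison among members tested, with H2bc22 added untested, the smallest p at D3 in each tissue and the 2 brightest of each class. Other members, and the factors Asf1b and Chaf1b, were named after their values were seen. Members and gene lists were chosen with earlier results of these data known. Lists comprised replication and mitosis genes, histone expression and chaperone factors, replication-independent variants and markers of lung, liver, squamous epithelium, glandular stomach, fat, skeletal muscle, B cells, T cells, neutrophils and red cell precursors. The marker lists had 0 calls in the dose, slope and interaction comparisons. Leaving out the arrays that stood apart was chosen after seeing the data. With arrays, precision is limited by the group size of 5.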

Additional observations from a re-analysis of the deposited data

Results flagged for a closer look

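In 10 of 244 groups of 5 mice, a named member had 1 value whose gap to the nearest other exceeded 0.71 of the range of the group, a limit that chance passes in about 1 of 20 groups (12.2 expected). In forestomach D3 H2ac18 was 2.62 in mouse 19 (others 1.63 to 1.89), where the glandular stomach mean was 6.63, and H3c15 was 0.48 in mouse 18 (others 1.80 to 2.15). In forestomach D1 H4c14 was -1.70 in mouse 7 (others -1.20 to -1.11). In lung H2ac10 was -1.58 in D3 mouse 19 (others -2.10 to -1.97) and H3c14 -2.61 in D1 mouse 8 (others -3.01 to -2.91). In liver D3 mouse 18 had the low value for both H3c14, at -4.62 (others -3.87 to -3.58), and H2bc14, at 0.75 (others 1.09 to 1.20). H2bc6 was -0.13 in liver of D0 mouse 5 (others 0.13 to 0.21) and 0.44 in liver of D2 mouse 13 (others 0.02 to 0.10), and H2ac19 was -1.95 in liver of D1 mouse 7 (others -2.32 to -2.22). No cause was tested for these values.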

How the results depend on the processing

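Counts of members called in the vehicle comparisons stayed within 1.5 times the main counts under every alternative run, from 21 to 25 between lung and liver, from 16 to 22 between lung and forestomach and from 23 to 31 between forestomach and liver. Leaving out each mouse in turn gave 22 to 23, 19 to 21 and 27 to 31. With mouse as a replicate block, the pairing by animal, the counts were 23, 21 and 30, and 0 for each interaction, and this changed no call of a named member. Every dose and interaction count stayed at 0. The slope in lung had 0 to 1 members called when mice were left out in turn, with 1 without mouse 20, and the slope in liver 0 to 1, with 1 without mouse 1 (H2ac4), and the forestomach slope stayed at 0. Leaving out single mice moved the counts at an unadjusted p under 0.05 to 11 to 17, 5 to 16 and 6 to 16 in lung at D1, D2 and D3, 0 to 6, 1 to 4 and 6 to 13 in liver, and 9 to 21, 9 to 21 and 3 to 16 in forestomach. Processed signals moved the median of all probes to 0.13 between lung and forestomach and to -0.21 between forestomach and liver, and the medians of the members there were -1.03 and 1.31. For lung against liver, lung against forestomach and forestomach against liver, the medians of the members were 0.27, -0.41 and 0.68 with no filter on low signals, 0.92, -0.53 and 1.14 for those above background on all arrays and 0.28, -0.62 and 0.86 after quantile normalisation of the Cy5 signals. Over the settings without a left-out array, dose medians ran from -0.15 to -0.08, -0.19 to -0.14 and -0.16 to -0.09 in lung at D1, D2 and D3, and from -0.06 to -0.01, -0.12 to -0.04 and -0.18 to -0.10 in liver. Of 1097 values of named members in the vehicle comparisons under alternatives, 1066 kept direction and side of the threshold, 22 lost and 9 gained a call, and 0 reversed. Dim probes set a limit, since 22 of 44 members were above background on every array, and priming from poly(A) tails leaves stem-loop transcripts without a known yield. The cause of the changes between settings was not tested.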
